A study of Mus musculus with 64 samples.

Results

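Cholesterol and fatty acid synthesis was followed through 32 genes, taken by name from the 55809 gene names of the count tables. Of these, 7 encode enzymes of the mevalonate steps, 11 the squalene and sterol steps, 5 regulators or a sterol carrier and 9 the fatty acid steps. The mevalonate steps turn acetyl-CoA into isoprenoid units, which are joined to squalene and then folded and trimmed to cholesterol. The same isoprenoids anchor small GTPases to membranes, and the fatty acid steps build, lengthen and desaturate the chains of membrane lipids. When sterol runs low in the endoplasmic reticulum, SCAP escorts the SREBP precursors to the Golgi, where they are cut into active transcription factors, and INSIG1 holds the complex back when sterol is plentiful. T cells switch these enzymes on when they grow and divide, and regulatory T (Treg) cells need mevalonate products for suppressive function.

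The cells came from 64 mouse libraries. In the reversible-allele (KIKO) experiment, heterozygous Foxp3-LSL females carry a stop cassette in Foxp3, so that the sorted "Treg wannabe" cells transcribe the locus without making the protein. PlusFoxp3 cells also carry CD4-CreERT2, which removes the cassette after a single dose of 4-hydroxytamoxifen (4-OHT), while minusFoxp3 cells are CD4-WT and stay without Foxp3. Resting and active cells, separated by surface markers in the sort, of spleen and lymph nodes were taken untreated, labelled day 0, and 3, 7, 14 and 28 days after 4-OHT, with 2 libraries per group. Beside them stand 2 resting and 2 active libraries of untreated Foxp3GFP Treg cells, which have always had Foxp3. In the degron experiment every mouse carried Foxp3-AID, a Foxp3 protein with an auxin-inducible degron, and received 5-ph-IAA for 7 days. Mice with ROSA26-TIR1(F74G), a ligase expressed once Cre from the Foxp3 locus has acted, lose the protein, and mice with ROSA26-WT keep it. Active Treg cells of spleen and lymph nodes and thymic CD73-negative Treg cells of adult females had 3 libraries per genotype. By the study's methods these females were heterozygous, Foxp3-AID/WT, whereas the study names hemizygous Foxp3-AID males for its experiments on neonates. Infant Treg cells of spleen and lymph nodes had 4 and 4, but title and genotype field contradict each other there, so these libraries go by their titles, as titled TIR1 and titled WT, with no settled direction. Adults were some weeks old by the study's methods, and infants were treated from just after birth. The study describes the replicates of the adult degron and KIKO groups as independent biological ones. For the infant and GFP Treg libraries nothing used here says so, and p-values there measure the spread between these samples, which may be in part technical.

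Each KIKO and GFP library (44 in all) held 35097257 to 57419138 counted read pairs, adult degron libraries 27753211 to 34029692 and infant libraries 33704114 to 55801009. Foxp3 mRNA was 448 to 615 CPM (counts scaled to the library total) in resting plusFoxp3 libraries from day 3 on and 426 to 594 CPM in active ones. Untreated plusFoxp3 libraries had 70.5 and 80.7 CPM in resting and 50.7 and 55.6 CPM in active cells, within the 44.3 to 81.5 CPM of all minusFoxp3 libraries, so day 0 compares genotypes and not Foxp3. The degron acts on the protein. Foxp3 mRNA in active cells was 76.7 to 93.4 CPM in TIR1 and 99.95 to 127 CPM in WT libraries without overlap, though edgeR called no gene there. Thymic libraries overlapped at 144 to 168 CPM in TIR1 and 144 to 181 CPM in WT. Adult degron genotypes follow the headers of the counts, which the records contradict, as described below. The libraries farthest from the others of their state were both active GFP Treg libraries, resting day 0 plusFoxp3 replicate 1 and active day 7 minusFoxp3 replicate 1.

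The promoters of 25 of the 32 genes were in the RefSeq promoter table (GRCm38.p6), each as a window from 250 bases before to 50 bases after a transcription start. Sterol genes are read out through SREBP sites that work together with NF-Y, which binds CCAAT. In this table CCAAT, on either strand, was in 20 of the 25 genes (80%) and in 41.06% of the 27025 genes listed. The GC box GGGCGG was in 21 of 25 (84%) against 38.2%, and the E-box CACGTG in 5 of 25 (20%) against 8.093%. Matches of different motifs can share bases at their ends. The SREBP site TCACNCCAC was in 1 of 25 (4%) against 1.436%, and the match was in Hmgcs1, 137 bases before the start. Below are the window with that match and those of Mvd, Hsd17b7 and Cyp51, a mevalonate and a pair of sterol genes that were higher in active cells without Foxp3. Capitals mark CCAAT, its reverse complement and the SREBP site, and a match is a string of letters, not a binding site.
Hmgcs1, chr13:119690101-119690400, plus strand: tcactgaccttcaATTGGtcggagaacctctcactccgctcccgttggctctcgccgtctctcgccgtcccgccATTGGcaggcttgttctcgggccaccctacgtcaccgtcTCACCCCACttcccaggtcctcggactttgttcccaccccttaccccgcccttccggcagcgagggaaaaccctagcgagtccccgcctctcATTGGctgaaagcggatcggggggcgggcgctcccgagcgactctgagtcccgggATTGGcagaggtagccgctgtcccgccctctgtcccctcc
Mvd, chr8:122443373-122443672, minus strand: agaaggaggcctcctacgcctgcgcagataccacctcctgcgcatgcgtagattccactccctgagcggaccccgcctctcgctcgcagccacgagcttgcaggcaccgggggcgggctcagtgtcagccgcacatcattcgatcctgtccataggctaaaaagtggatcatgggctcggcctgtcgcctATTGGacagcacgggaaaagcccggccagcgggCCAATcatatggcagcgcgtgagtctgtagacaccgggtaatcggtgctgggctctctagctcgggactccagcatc
Hsd17b7, chr1:169969156-169969455, minus strand: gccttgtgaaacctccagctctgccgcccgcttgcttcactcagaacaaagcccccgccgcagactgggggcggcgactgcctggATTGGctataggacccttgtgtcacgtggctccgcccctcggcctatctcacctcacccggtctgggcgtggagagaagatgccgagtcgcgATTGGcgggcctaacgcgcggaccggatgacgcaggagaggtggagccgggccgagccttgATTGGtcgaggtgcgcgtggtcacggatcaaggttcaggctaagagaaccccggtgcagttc
Cyp51, chr5:4104648-4104947, minus strand: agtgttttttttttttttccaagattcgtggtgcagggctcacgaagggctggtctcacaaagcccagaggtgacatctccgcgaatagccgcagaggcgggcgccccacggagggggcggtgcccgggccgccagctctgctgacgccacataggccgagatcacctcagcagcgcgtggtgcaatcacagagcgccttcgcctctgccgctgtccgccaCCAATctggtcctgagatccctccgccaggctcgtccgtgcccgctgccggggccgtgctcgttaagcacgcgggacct

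By the count tables' annotation (GRCm39), Hmgcs1 lies at chr13:120151915-120169796, Sqle at chr15:59186926-59203041, Mvd at chr8:123160340-123170161 and Hsd17b7 at chr1:169777104-169796810, and counts are summed over all exons of a gene, untranslated ones included. All 32 genes were measured in the KIKO and GFP libraries, at levels that differed greatly between genes. Per kilobase of exon, a rough scale between genes, Acly was highest with medians of 43.1 CPM per kb in resting and 51.3 CPM per kb in active cells. The length takes in all annotated exons, used or not, which can lower genes with long annotations such as Acaca (17.1 kb). Acly makes cytosolic acetyl-CoA from citrate and so feeds both pathways. It was followed by Ebp, a sterol isomerase, at 34.2 and 43.0 CPM per kb, and by Srebf2, the transcription factor of the sterol genes, at 36.5 and 40.7 CPM per kb, with ranges that overlapped. Mvd, which makes the isoprenoid unit isopentenyl diphosphate, stood at 20.2 and 29.0 CPM per kb. At the low end were Acaca, which makes malonyl-CoA, at 0.399 and 0.468 CPM per kb, the desaturase Fads2 at 0.146 and 0.215 CPM per kb and the desaturase Scd1 at 0.0357 and 0.0412 CPM per kb. Scd1 was close to absent, with a mean of 13.4 read pairs per library, and of the 4 desaturases measured Scd2 was the most abundant, at 13.6 and 13.9 CPM per kb.

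**Figure D1:**
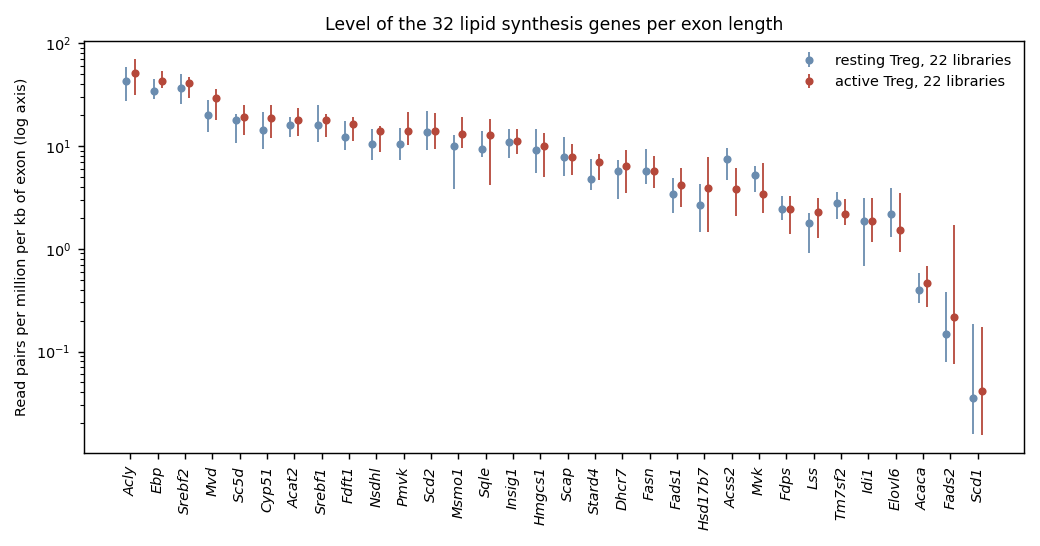
CPM per kilobase of exon (log axis) for the 32 genes, in the 22 resting (blue) and 22 active (red) KIKO and GFP libraries. Points are medians and lines run from the lowest to the highest library; Acly, Ebp and Srebf2 are at the top, and Acaca, Fads2 and Scd1 fall well below the rest.

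Active cells without Foxp3 had more mRNA of most cholesterol genes than resting cells without Foxp3. Of the 32 genes, 19 were higher and 3 lower in active minusFoxp3 cells (edgeR quasi-likelihood F test, Benjamini-Hochberg adjusted p under 0.05 over all genes, 10 against 10 libraries, mean of the 5 daily differences). In the same contrast 19.6% of all 20790 genes tested were called higher and 18.3% lower. The median log2 fold change was 0.40 over the 32 genes and -0.03 over all genes, and 28 of 32 were positive against 46.5% of all genes. The summed CPM of the 18 mevalonate and sterol genes was 557, 633 and 702 (lowest, median, highest) in resting and 774, 887 and 919 in active minusFoxp3 libraries, with no overlap. The summed CPM of the 9 fatty acid genes overlapped between the states, with 320 to 514 in resting and 317 to 584 in active libraries. Fewer cells of a kind and less RNA per cell cannot be told apart in such bulk libraries.

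Among the mevalonate genes 4 of 7 were higher and 1 lower. Mvd was at 26.0, 30.8 and 39.0 CPM (lowest, median, highest of 10) in resting and at 44.4, 54.8 and 66.7 CPM in active minusFoxp3 libraries. The ranges did not overlap, and the fold change was 1.75 (log2 0.81, SE 0.10, adjusted p = 2.76e-07). Pmvk, the kinase before Mvd, rose by a log2 of 0.54 (SE 0.12), Idi1, which isomerises the isoprenoid unit, by 0.41 (SE 0.15) and Acat2, which starts the pathway from acetyl-CoA, by 0.33 (SE 0.08). The call of Idi1 was lost in 11 of 20 fits that left out 1 library each. Mvk, the kinase before Pmvk, went the other way, with 9.75, 12.3 and 17.2 CPM in resting and 6.27, 8.74 and 18.2 CPM in active libraries (log2 -0.45, SE 0.14, adjusted p = 0.0139). Its ranges overlapped. Hmgcs1, which commits acetyl-CoA to the pathway, was at 32.6, 39.7 and 53.0 CPM in resting and 22.8, 46.6 and 58.1 CPM in active libraries, and its log2 fold change of 0.19 did not pass the test. Fdps, which makes farnesyl diphosphate, did not pass either (0.11). It shares 1124 exonic bases with Gm43738 on its own strand, and Idi1 shares 323 with Gm48574 on the opposite strand.

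The squalene and sterol steps moved most evenly, with 9 of 11 genes higher and 1 lower. Hsd17b7, a sterol 3-ketoreductase, was at 10.6, 13.5 and 15.2 CPM in resting and at 14.5, 21.1 and 39.9 CPM in active minusFoxp3 libraries. Its ranges met only at the edge, and the fold change was 1.63 (log2 0.71, SE 0.12, adjusted p = 2.15e-05). Sqle, the squalene epoxidase and a rate-limiting enzyme of the pathway, was at 43.5, 49.9 and 66.5 CPM in resting and at 56.6, 74.9 and 102 CPM in active libraries (log2 0.53, SE 0.11, adjusted p = 2.07e-04). Fdft1, which makes squalene, was at 37.6 to 53.9 CPM in resting and 56.8 to 78.0 CPM in active libraries, with no overlap (log2 0.60, SE 0.07), but it shares 774 exonic bases with the abundant Ctsb on the opposite strand, and strand was not used in counting. Lss, which closes the ring, rose by a log2 of 0.66, the demethylase Cyp51 by 0.62, Msmo1 by 0.60, Nsdhl by 0.47, Ebp by 0.42 and Sc5d by 0.42. Cyp51 shares 166 exonic bases with the abundant Akap9 on the opposite strand. Tm7sf2, a sterol reductase whose step another enzyme can also carry out, fell by 0.35 on the log2 scale (SE 0.10, adjusted p = 0.00738), from 10.2, 11.7 and 15.7 CPM to 7.46, 9.86 and 13.5 CPM, and shares 532 exonic bases with Vps51 on its own strand. Dhcr7, which catalyses a last step to cholesterol, did not pass (0.29).

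Of the 5 regulators and carriers only Stard4 passed. Srebf2 was at 185, 262 and 290 CPM in resting and at 215, 289 and 317 CPM in active minusFoxp3 libraries (log2 0.15), and Srebf1, which favours fatty acid genes, at 61.8, 83.6 and 102 CPM and at 68.8, 103 and 115 CPM (0.19). Insig1, itself a sterol-responsive gene, was at 23.5, 32.7 and 42.5 CPM and at 25.8, 34.4 and 45.1 CPM (0.11), and Scap had a log2 fold change of 0.06. The ranges of the first 3 overlapped between the states. Stard4, a soluble sterol carrier, rose from 21.6, 25.3 and 29.6 CPM to 34.4, 40.6 and 46.2 CPM without overlap (log2 0.69, SE 0.08, adjusted p = 1.48e-07).

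The fatty acid genes split, with 5 of 9 higher and 1 lower. Acss2, which makes acetyl-CoA from acetate, was at 47.6, 80.4 and 93.5 CPM in resting and at 21.2, 39.7 and 47.7 CPM in active minusFoxp3 libraries. The ranges met only at the edge, and the fold change was 0.501 (log2 -0.996, SE 0.15, adjusted p = 3.01e-06). Acss2 shares 395 exonic bases with Gss and 197 with Ggt7, both on the opposite strand. Acly, the other source of cytosolic acetyl-CoA, rose by a log2 of 0.40 (SE 0.10). Fads2 had the largest value, with 0.259, 0.418 and 1.16 CPM in resting and 0.251, 1.71 and 5.56 CPM in active libraries (log2 1.99, SE 0.46, adjusted p = 9.33e-04). It is a low gene, and the active replicates of one day differed as widely as 0.433 and 5.56 CPM at day 7. Its neighbour Fads1 rose by 0.56, Acaca by 0.40 and Scd2 by 0.32. Scd2 was at 50.4, 59.5 and 75.0 CPM in resting and at 50.9, 79.2 and 93.6 CPM in active libraries. Fasn, the fatty acid synthase, was at 46.5, 54.2 and 69.8 CPM and at 42.9, 60.6 and 66.3 CPM and did not pass (0.08), nor did the elongase Elovl6 (-0.27) or Scd1 (0.07).

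Genes around the synthesis pathway were taken from lists of the same kind, whose counts stand against 19.6% of all genes called higher and 18.3% lower. Of 11 measured genes of sterol efflux and storage 3 were higher and 3 lower in active minusFoxp3 cells. The exporters Abca1 (log2 -2.56, SE 0.18) and Abcg1 (-0.61, SE 0.07) and the ubiquitin ligase Mylip (-0.996, SE 0.08) fell, while Cyp27a1, which oxidises cholesterol, rose (2.59, SE 0.60). Of 15 genes of sterol control and uptake 3 were higher, with Lrp8 (1.26) in front, and 2 lower. The isoprenoid branch had 3 of 12 higher and 1 lower, Fntb, a farnesyltransferase subunit (-1.21). Lipid supply and elongation had 5 of 17 higher and 4 lower, the latter with Acsl3 (-1.85) and Dgat2 (-1.74). Fatty acid oxidation had 8 of 15 higher and 2 lower. Apart from the higher share in fatty acid oxidation, these shares lie near those of all genes.

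Other genes moved with the same contrast. Of 18 proliferation genes 17 were higher in active minusFoxp3 cells, and their summed CPM was 682 to 905 in resting and 1062 to 1922 in active libraries. The summed CPM of 6 B-cell markers was 20.2 to 30.6 in resting and 70.3 to 207 in active minusFoxp3 libraries. Of these, 1 was called higher and 1 lower; Blk was at 0 to 1.06 CPM in resting and 45.7 to 197 CPM in active libraries (log2 8.64), Cd79a fell (-1.34), and Ms4a1 was at 1.84 CPM or less in each minusFoxp3 library. Myeloid markers summed to 2.07 to 23.6 CPM in resting and 4.69 to 29.2 CPM in active libraries, with 1 of 6 measured called higher. The part of proliferation or of other cells in the result was not tested. Without the untreated day 0 libraries 17 genes were higher and 1 lower, and the shares of all genes in that fit are not given.

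**Figure D2:**
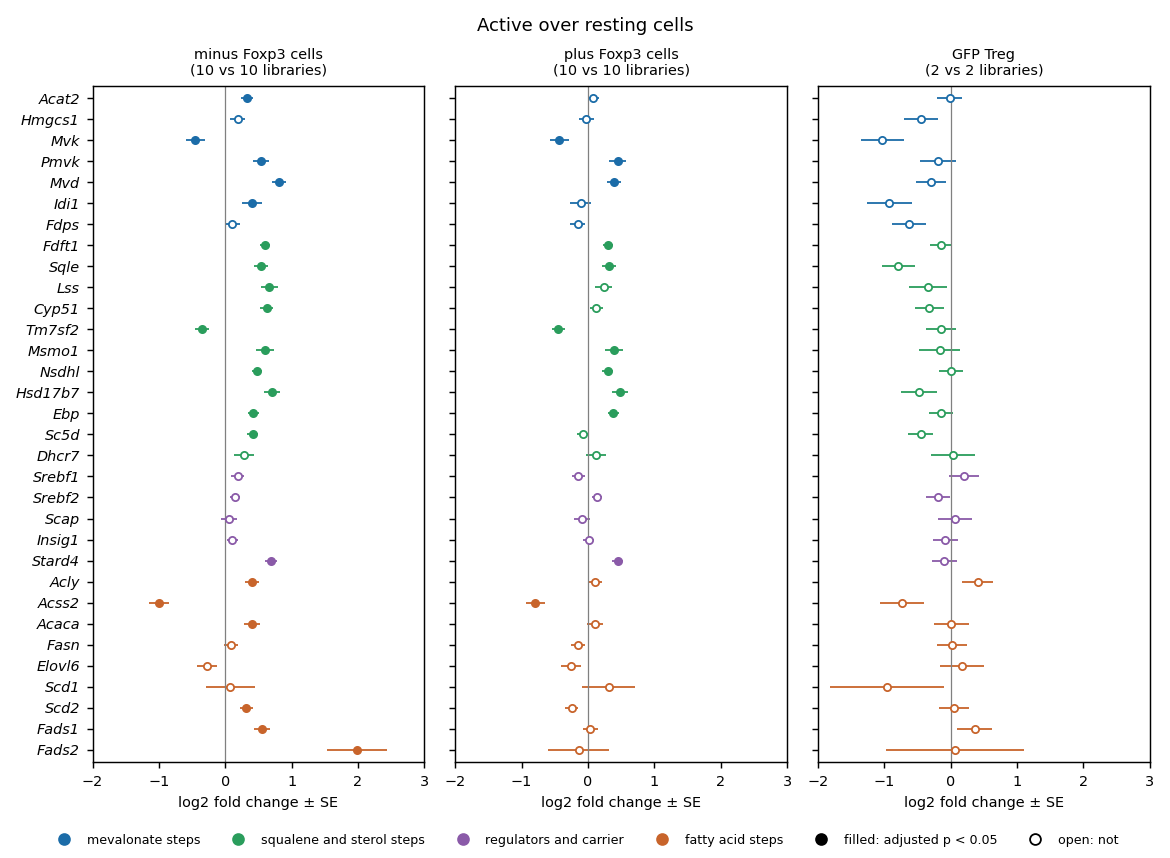
Log2 fold change of active over resting cells, with SE, for each of the 32 genes in minusFoxp3 cells (10 against 10 libraries), plusFoxp3 cells (10 against 10) and GFP Treg cells (2 against 2). Filled points passed an adjusted p of 0.05: 19 higher and 3 lower in minusFoxp3 cells, 9 higher and 3 lower in plusFoxp3 cells, none in GFP Treg cells.

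In plusFoxp3 cells fewer of the genes differed between the states. Of the 32 genes 9 were higher and 3 lower in active cells, where 15.6% of all genes were called higher and 14.6% lower, and the median log2 fold change was 0.09 against -0.01 over all genes. Hsd17b7 (log2 0.48), Stard4 (0.45), Pmvk (0.45), Mvd (0.39), Msmo1 (0.39), Ebp (0.38), Sqle (0.32), Nsdhl (0.30) and Fdft1 (0.30) were higher, and Acss2 (-0.79), Tm7sf2 (-0.45) and Mvk (-0.43) lower. Sqle was at 43.4, 54.9 and 77.3 CPM (lowest, median, highest of 10) in resting and at 43.5, 71.2 and 97.1 CPM in active plusFoxp3 libraries, with wide overlap. Of the 18 proliferation genes 2 were higher and 2 lower here. Untreated day 0 cells are part of this mean, and without them 4 genes were higher and 4 lower. Hsd17b7, Msmo1, Fdft1, Sqle and Nsdhl no longer passed then (log2 0.20 to 0.28), and the shares of all genes in that fit are not given.

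GFP Treg cells had no called gene between the states, in a contrast of 2 against 2 libraries that called 3.12% of all genes. The test was edgeR's, with 6 genes at an unadjusted p under 0.05, and DESeq2 called 2. The 3.12% is a background for neither of these counts. The median over the 32 genes was -0.15, and 21 were negative. Sqle was at 49.2 and 43.5 CPM in resting and at 22.9 and 31.6 CPM in active GFP Treg libraries, and Mvd at 51.4 and 46.6 CPM and at 32.9 and 47.9 CPM. The sum of the 18 mevalonate and sterol genes was 697 and 724 CPM in resting and 577 and 615 CPM in active GFP Treg cells. The fitted log2 fold change was negative for all 7 mevalonate genes and 9 of 11 sterol genes and positive for 7 of 9 fatty acid genes, without any passing the test, and some were close to 0, such as Acat2 at -0.01.

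The difference between the state effects was itself tested. For days 3 to 28 the plusFoxp3 effect in active cells was set against that in resting cells, and Sc5d, which introduces a late double bond of the sterol ring, passed with a log2 difference of -0.69 (SE 0.13, adjusted p = 0.00454). That is 1 of 32 genes lower and 0 higher, against 1.24% of all genes lower and 0.577% higher. Of the 32 differences 28 were negative, with a median of -0.28 against 0.01 over all genes. Sc5d was at 57.2, 78.9 and 91.0 CPM in resting and 89.0, 102 and 123 CPM in active minusFoxp3 libraries, and at 51.8, 93.5 and 101 CPM in resting and 66.6, 79.8 and 100 CPM in active plusFoxp3 libraries of all days. Of the 18 proliferation genes 16 had a negative difference that passed, and their part in the result was not tested. DESeq2 called 5 of the 32 genes, a count given without its own share of all genes.

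The state difference of GFP Treg cells was also set against that of untreated minusFoxp3 cells, a contrast added after the data had been seen. Here 3 of 32 genes were lower and 0 higher, against 1.32% and 1.11% of all genes, and 29 differences were negative, with a median of -0.62 against -0.01 over all genes. Sqle had a log2 difference of -1.30 (SE 0.34, adjusted p = 0.0359), Mvd of -1.28 (SE 0.32, adjusted p = 0.0303) and Cyp51 of -1.17 (SE 0.30, adjusted p = 0.0351). Mvd was at 29.8 and 31.7 CPM in resting and 64.2 and 57.1 CPM in active untreated minusFoxp3 cells, so that its state difference there was large, and in GFP Treg cells the libraries of both states overlapped. Cyp51 was at 55.1 and 51.0 CPM and at 85.2 and 106 CPM in untreated minusFoxp3 cells, and at 66.2 and 65.2 CPM and at 53.4 and 53.3 CPM in GFP Treg cells. In a fit of these 8 libraries alone none of the 3 passed. Leaving out 1 library ended all 3 calls for 6 of the 8 libraries, and 1 call was left without active minusFoxp3 day 0 replicate 1 and 2 without active GFP Treg replicate 2.

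**Figure D3:**
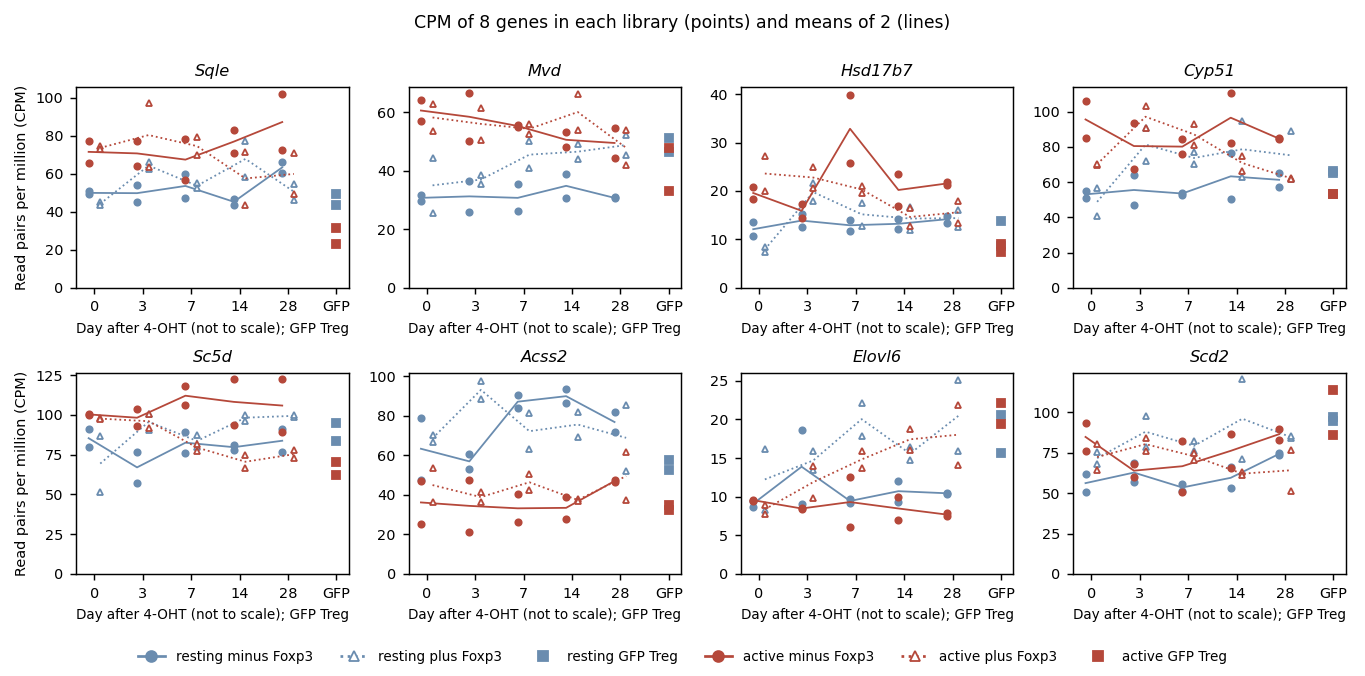
CPM of 8 of the genes in each resting (blue) and active (red) library, against the day after 4-OHT (0, 3, 7, 14, 28, spaced evenly) and in GFP Treg cells. Filled circles and full lines are minusFoxp3 cells, open triangles and dotted lines plusFoxp3 cells, squares GFP Treg cells, and lines join means of 2 libraries; Mvd in resting plusFoxp3 cells lies at 35.3 to 52.2 CPM from day 3 on, against 26.0 to 39.0 CPM in minusFoxp3 cells.

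Restoring Foxp3 in resting cells went with more mRNA of a few synthesis genes. Over days 3 to 28, resting plusFoxp3 cells had 5 of the 32 genes higher and 0 lower than minusFoxp3 cells (8 against 8 libraries), where 2.99% of all genes were called higher and 1.73% lower. The median was 0.22 against -0.02 over all genes, and 30 of 32 genes were positive against 46.6% of all genes. Scd2 had the smallest adjusted p, with 51.4 to 75.0 CPM in the minusFoxp3 and 71.3 to 121 CPM in the plusFoxp3 libraries, whose ranges barely overlapped (log2 0.51, SE 0.10, adjusted p = 0.00684). Scd2 was apart in untreated cells too, before any Foxp3. There the lower plusFoxp3 library had 68.0 CPM, above both minusFoxp3 libraries. Elovl6, which lengthens saturated chains, was at 9.09 to 18.7 CPM and at 13.5 to 25.1 CPM (0.70, SE 0.17, adjusted p = 0.0295). Mvd was at 26.0 to 39.0 CPM and at 35.3 to 52.2 CPM (0.50, SE 0.12, adjusted p = 0.0208).

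Hmgcs1 and Fdft1 also rose in resting cells. Hmgcs1 was at 35.9 and 32.6 CPM at day 3 in minusFoxp3 and at 54.0 and 56.7 CPM in plusFoxp3 libraries, and at 41.3 and 35.8 CPM against 67.5 and 48.8 CPM at day 7. At day 14 it was at 43.1 and 42.1 CPM against 64.8 and 57.2 CPM, and at day 28 at 53.0 and 45.8 CPM against 52.9 and 34.1 CPM, so that the groups were apart at days 3, 7 and 14 and overlapped at day 28. The mean over these days was a log2 of 0.43 (SE 0.10, adjusted p = 0.0185), and Fdft1 had 0.42 (SE 0.10, adjusted p = 0.0203). The remaining 27 genes did not pass, among them Idi1 (0.63), Cyp51 (0.43), Sqle (0.18), Fasn (0.27), Srebf1 (0.29), Srebf2 (0.05) and Insig1 (0.10). Of the 18 proliferation genes 16 were higher in the same contrast, with sums of 682 to 905 CPM in resting minusFoxp3 and 762 to 1877 CPM in resting plusFoxp3 libraries of all days, and their part in the result was not tested. None of the sterol efflux, uptake, isoprenoid and oxidation genes passed, and 1 of 17 lipid supply genes was higher. Without day 14 plusFoxp3 replicate 1 or without day 28 plusFoxp3 replicate 1 the 5 calls became 2, and Elovl6 lost its call in 9 of the 16 fits that left out 1 library each.

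In active cells the same comparison of plusFoxp3 with minusFoxp3 cells over days 3 to 28 called 2 genes, in opposite directions. That is a share near that of all genes, of which 3.23% were called higher and 2.99% lower. Elovl6 was at 8.38 and 8.56 CPM in minusFoxp3 and 14.0 and 9.79 CPM in plusFoxp3 libraries at day 3, and at 6.04 and 12.6 CPM against 15.9 and 13.7 CPM at day 7. It was at 9.92 and 7.03 CPM against 16.0 and 18.8 CPM at day 14, and at 7.54 and 7.83 CPM against 14.1 and 21.9 CPM at day 28. Both plusFoxp3 libraries lay above both minusFoxp3 libraries at each of these days, and the log2 fold change over them was 0.89 (SE 0.15, adjusted p = 0.00179). Untreated, Elovl6 was at 9.47 and 9.63 CPM in minusFoxp3 and at 8.93 and 7.80 CPM in plusFoxp3 libraries. Sc5d fell by 0.38 on the log2 scale (SE 0.09, adjusted p = 0.0115). The libraries overlapped at day 3, with 103 and 93.0 CPM against 100 and 91.7 CPM, and were apart from day 7 on, at 118 and 106 CPM against 81.8 and 77.1 CPM, 123 and 93.7 CPM against 74.5 and 66.6 CPM, and 123 and 89.0 CPM against 77.8 and 72.8 CPM.

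The median of all 32 genes in active cells was -0.01, with 16 positive, and Fads2 had the largest value without passing (-1.56). Of the genes around the pathway, the efflux genes Abca1 (1.36, SE 0.24), Abcg1 (0.46, SE 0.09) and Mylip (0.39, SE 0.09) rose, and Cyp27a1 (-2.99, SE 0.82) and the phospholipid remodelling enzyme Lpcat3 (-0.38, SE 0.09) fell. All were picked as called genes of large change, and the counts of their lists are not given here. The summed B-cell markers were 70.3 to 207 CPM in active minusFoxp3 and 42.1 to 100 CPM in active plusFoxp3 libraries of all days, with Blk called lower (-1.21), and 1 of 18 proliferation genes was lower. Their part in the result was not tested.

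**Figure D4:**
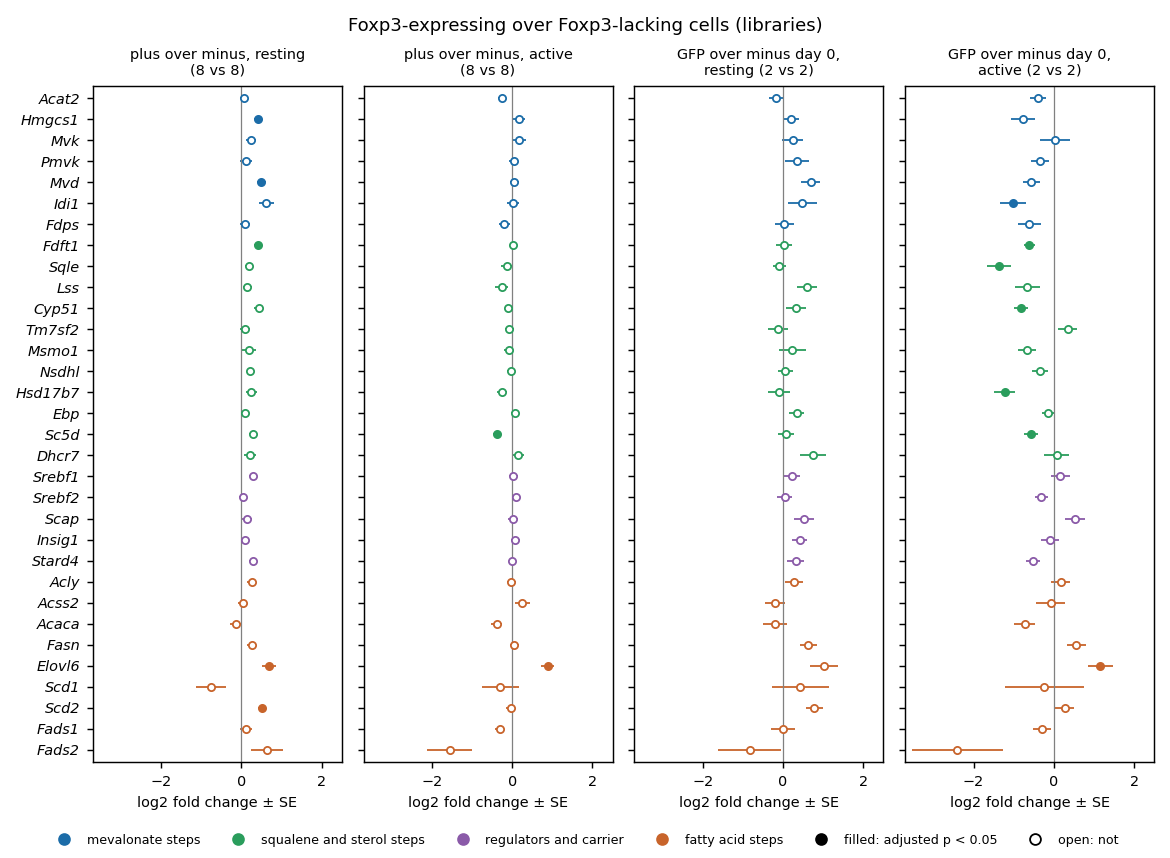
Log2 fold change with SE of the 32 genes for plusFoxp3 over minusFoxp3 cells at days 3 to 28 (8 against 8 libraries) and for GFP Treg over untreated minusFoxp3 cells (2 against 2), each in resting and active cells. Filled points passed an adjusted p of 0.05: 5 higher in resting restoration, Elovl6 higher and Sc5d lower in active restoration, none in resting and 1 higher and 6 lower in active GFP Treg cells.

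No gene of the 32 passed at any single day in either state with 2 against 2 libraries by edgeR. In resting cells 0.00487% of all genes were called at day 0, 0.0487% at day 3, 0.0585% at day 7, 0.268% at day 14 and 0.945% at day 28. The medians over the 32 genes were -0.01, 0.26, 0.19, 0.31 and 0.10, and 5, 12, 5, 8 and 3 genes had an unadjusted p under 0.05. DESeq2 called 0, 2, 0, 3 and 0. In active cells 0.00481%, 0.274%, 0.568%, 0.732% and 1.85% of all genes were called. The medians there were -0.05, 0.12, 0.04, -0.13 and -0.22, with 1, 3, 6, 4 and 5 genes at an unadjusted p under 0.05, and DESeq2 called 0, 0, 0, 3 and 2. Among active libraries Hmgcs1 lay at 40.1 and 38.9 CPM in minusFoxp3 against 52.2 and 62.0 CPM in plusFoxp3 cells at day 3, and at 58.1 and 50.2 CPM against 44.8 and 26.6 CPM at day 28, on either side of each other. The percentages of all genes are at the adjusted edgeR threshold and are no background for the unadjusted or DESeq2 counts. Whether the difference changed with the day was not tested.

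Time and 4-OHT without recombinase left the genes uncalled. In minusFoxp3 cells edgeR called 0 of the 32 genes and 0% of all genes for any difference among the 5 days in resting and in active cells, with 3 and 1 genes at an unadjusted p under 0.05. Day 3 against day 0 also gave 0 genes and 0% in both states, with 1 gene at an unadjusted p under 0.05 in each. DESeq2 called none in these 4 contrasts. Over the 5 days resting minusFoxp3 cells held Sqle at 43.5 to 66.5 CPM, Insig1 at 23.5 to 42.5 CPM and Fasn at 46.5 to 69.8 CPM.

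Active GFP Treg cells had less mRNA of sterol genes than active cells without Foxp3. Against untreated minusFoxp3 cells, 6 of the 32 genes were lower and 1 higher, where 4.79% of all genes were called lower and 5.21% higher, with a median of -0.35 against 0.00 over all genes. Sqle was at 65.7 and 77.4 CPM in active untreated minusFoxp3 and at 22.9 and 31.6 CPM in active GFP Treg libraries, a fold change of 0.388 (log2 -1.37, SE 0.29, adjusted p = 0.00485). Hsd17b7 was at 20.8 and 18.4 CPM and at 7.35 and 9.07 CPM (-1.23, SE 0.26, adjusted p = 0.0052), and Idi1 at 7.19 and 10.9 CPM and at 4.65 and 4.12 CPM (-1.02, SE 0.32, adjusted p = 0.0499). In all 3 the GFP Treg libraries lay below the others. Cyp51 (-0.82), Fdft1 (-0.62) and Sc5d (-0.58) were lower too.

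Elovl6 was the gene that was higher, at 19.4 and 22.2 CPM in active GFP Treg and 9.47 and 9.63 CPM in active untreated minusFoxp3 libraries (log2 1.15, SE 0.31, adjusted p = 0.0244). The regulators did not pass, with Srebf2 at 249 and 292 CPM in minusFoxp3 and 209 and 218 CPM in GFP Treg libraries (-0.32), Srebf1 at 75.8 and 110 CPM and at 105 and 99.9 CPM (0.16), and Insig1 at 25.8 and 45.1 CPM and at 28.9 and 36.5 CPM (-0.09). Around the pathway, Abca1 (log2 3.58, SE 0.51), Abcg1 (1.16, SE 0.17), Dgat2 (4.57), Hacd3 (1.56), Elovl5 (1.05) and Decr1 (1.37) were higher. These too were picked as called genes of large change, without the counts of their lists. Of the 18 proliferation genes 5 were lower and none higher, and their part in the result was not tested. The 7 calls became 1 to 4 when any of the 4 libraries was left out, with 1 call without active GFP Treg replicate 1, and 4 in a fit of the 4 libraries alone. Elovl6, Sc5d and Idi1 lost their calls whichever of the 4 libraries was left out of the full fit. Both GFP Treg libraries stood apart from the other active libraries, and mouse line and Foxp3 cannot be told apart in this contrast.

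In resting cells GFP Treg and untreated minusFoxp3 libraries differed in 0 of the 32 genes by edgeR, where 2.91% of all genes were called. Of the 32 genes 7 had an unadjusted p under 0.05, DESeq2 called 1, and the median was 0.24 against -0.01 over all genes. Scd2, at 94.4 and 96.9 CPM in GFP Treg and 50.4 and 62.0 CPM in minusFoxp3 libraries, had a log2 fold change of 0.78 and came closest (adjusted p = 0.0531). Elovl6 was at 20.6 and 15.7 CPM and at 9.48 and 8.71 CPM (1.01, adjusted p = 0.18). Against plusFoxp3 cells at day 28, GFP Treg cells differed in 0 genes in both states, with 0.0341% of all genes called in resting and 2.01% in active cells. There 1 and 4 of the 32 genes had an unadjusted p under 0.05, and DESeq2 called 0 and 2. In active cells Sqle was at 70.7 and 49.1 CPM in day 28 plusFoxp3 and 22.9 and 31.6 CPM in GFP Treg libraries, with a log2 fold change of -1.14 that did not pass.

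In the degron experiment, thymic and active Treg cells of ROSA26-WT mice, both with Foxp3, differed strongly in these genes. Of the 30 genes measured, 10 were lower and 2 higher in thymic cells (3 against 3 libraries), where 9.85% of all genes were called lower and 5.96% higher. Fads2 and Scd1 were under the count minimum. The median was -0.78 against -0.03 over all genes, and 26 of 30 were negative. The 18 mevalonate and sterol genes summed to 536 to 568 CPM in thymic and 887 to 1065 CPM in active libraries. Sqle was at 14.3, 9.70 and 4.89 CPM in thymic and 32.1, 88.2 and 98.5 CPM in active libraries, a fold change of 0.124 (log2 -3.01, SE 0.52, adjusted p = 0.00645). The groups did not overlap, although active replicate 1 was well under the other 2. Hsd17b7 was at 1.42, 2.31 and 3.07 CPM in thymic and 12.0, 20.5 and 17.8 CPM in active libraries (-2.98, SE 0.46, adjusted p = 0.00378). Insig1 was at 6.52, 6.72 and 14.4 CPM and at 24.2, 42.2 and 26.9 CPM (-1.85, SE 0.41, adjusted p = 0.0201).

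The other genes lower in thymic cells were Cyp51 (log2 -1.81), Fdft1 (-1.26), Pmvk (-1.14), Nsdhl (-0.99), Ebp (-0.93), Acly (-0.89) and Msmo1 (-0.79). Both genes that were higher belong to the fatty acid steps, as does Acly, which was lower. The share called higher was close to the 5.96% of all genes. Acss2 was at 106, 118 and 135 CPM in thymic and 35.9, 32.8 and 47.8 CPM in active libraries (1.54, SE 0.20, adjusted p = 0.00159). Scd2 was at 137, 165 and 178 CPM and at 47.9, 63.7 and 74.0 CPM (1.28, SE 0.20, adjusted p = 0.00359). Both were thus far apart in the opposite direction to the sterol genes. The transcription factors did not pass, with Srebf2 at 189, 140 and 140 CPM in thymic and 166, 219 and 303 CPM in active libraries (-0.64), and Srebf1 at 82.0, 150 and 124 CPM and at 64.6, 107 and 128 CPM (0.16). Fasn was at 27.3, 28.4 and 21.6 CPM and at 39.3, 31.1 and 26.6 CPM (-0.42), and Hmgcs1 at 27.1, 32.2 and 41.6 CPM and at 44.2, 60.3 and 57.5 CPM (-0.77), and neither passed.

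Around the pathway, Abca1 (log2 3.88, SE 0.43), Abcg1 (1.35, SE 0.17) and Mylip (1.23, SE 0.17) were higher in thymic cells. They were picked as called genes of large change, and the counts of their lists are not given here. Of the 18 proliferation genes 14 were lower, with sums of 416 to 586 CPM in thymic and 1179 to 2010 CPM in active libraries. Markers of double-positive thymocytes summed to 55.3 to 66.0 CPM in thymic and 11.1 to 15.3 CPM in active libraries, with 2 of 3 measured called higher. Most of the thymic sum was Cd8b1, at 46.9 to 55.9 CPM, and Rag1, Rag2 and Ptcra were at 0 in each thymic library. B-cell markers summed to 11.02 to 21.1 CPM in thymic and 48.5 to 77.7 CPM in active libraries. Their part in the result was not tested, and tissue and cell stage cannot be told apart. Leaving out 1 library gave 8 calls without thymic replicate 2 and 17 without active replicate 1, which stood apart from its group. Msmo1 lost its call in 4 of 6 such fits, and Pmvk, Insig1 and Nsdhl in 3 of 6 each. With the files taken as attached in the records, Insig1, Acly and Nsdhl no longer passed, and Hsd17b7 had a log2 fold change of -1.27.

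No gene passed between adult degron genotypes. In thymic cells edgeR called 0 of 30 genes and 0% of all genes for TIR1 against WT, with 3 of the 30 at an unadjusted p under 0.05, and DESeq2 also called 0. Hsd17b7 was at 8.59, 7.26 and 6.80 CPM in TIR1 and 1.42, 2.31 and 3.07 CPM in WT libraries, which did not overlap, with a log2 fold change of 1.73 (SE 0.45) and an adjusted p = 0.495. Sqle was at 8.02, 11.8 and 9.11 CPM in thymic TIR1 libraries, among its values in WT libraries. Insig1 was at 11.6, 16.2 and 17.5 CPM (0.71) and Scd2 at 180, 168 and 143 CPM (0.03).

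In active cells edgeR called 0 of 31 genes and 0% of all genes, with 1 of the 31 at an unadjusted p under 0.05, and DESeq2 called 0. The summed CPM of the mevalonate and sterol genes was 893 to 997 in TIR1 and 887 to 1065 in WT libraries. Sqle was at 72.9, 55.7 and 51.3 CPM in TIR1 libraries (log2 -0.31), Hmgcs1 at 68.5, 36.5 and 61.0 CPM (0.01) and Acss2 at 27.3, 26.8 and 27.1 CPM, below its 3 WT libraries (-0.55, unadjusted p = 0.0318, adjusted p = 1). The 12 adult degron files are attached in the records to samples of the other genotype than their headers name, the headers were followed here, and under the attachment these contrasts have the opposite sign. Il2ra encodes a subunit of the interleukin receptor that Treg cells carry and is known to be raised by Foxp3. It did not overlap between active libraries, at 280 to 305 CPM where headers name TIR1 and 409 to 504 CPM where they name WT. In thymic libraries Il2ra overlapped, at 325 to 370 CPM where headers name TIR1 and 353 to 485 CPM where they name WT.

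Infant Treg cells gave 0 of 31 genes by edgeR, where 0.0185% of all genes were called. Of the 31 genes 3 had an unadjusted p under 0.05, DESeq2 called 1, and 22 were negative for titled TIR1 against titled WT, with a median of -0.05 against -0.01 over all genes. Dhcr7 was closest, at 47.9 to 55.6 CPM in libraries titled TIR1 and 60.4 to 68.2 CPM in those titled WT, which did not overlap (log2 -0.27, adjusted p = 0.13). Sqle was at 37.4, 36.7, 32.4 and 23.6 CPM and at 31.6, 34.8, 42.1 and 29.2 CPM, Insig1 at 28.0, 31.6, 33.9 and 29.7 CPM and at 37.0, 29.8, 32.6 and 27.1 CPM, and Srebf2 at 213, 277, 262 and 276 CPM and at 282, 345, 294 and 261 CPM. All of these overlapped. Fasn was at 191, 202, 194 and 179 CPM and at 171, 237, 191 and 192 CPM, also with overlap. The proliferation genes summed to 2430 to 3494 CPM in libraries titled TIR1 and 1201 to 2441 CPM in those titled WT, with 18 of 18 positive and none called. Without titled WT replicate 4, 3 of the 31 genes were called. Calls over all genes ran from 1 to 1774 across the fits that left out 1 infant library, so this count is no result about the members.

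**Figure D5:**
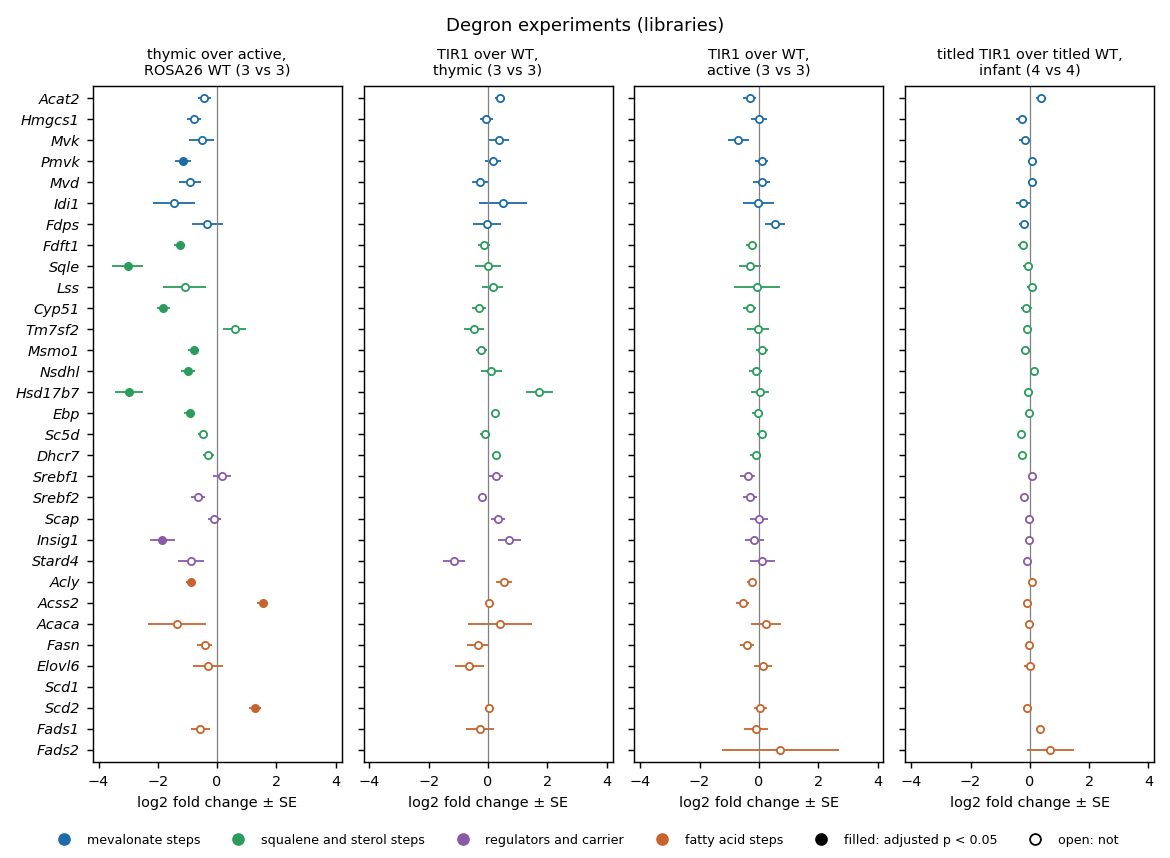
Log2 fold change with SE of the 32 genes for thymic over active Treg cells of ROSA26-WT mice, for TIR1 over WT in thymic and in active cells (3 against 3 libraries each) and for titled TIR1 over titled WT in infants (4 against 4). Filled points passed an adjusted p of 0.05: 10 lower and 2 higher in thymic cells, none in the other contrasts; genes under the count minimum have no point.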

How the data were processed

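Bulk paired-end RNA-seq of sorted mouse Treg cells was analysed. Each deposited file gives unnormalised counts of read pairs by gene, which the authors made with featureCounts 2.0.3 (per the file headers: unstranded, by gene name, GENCODE vM30, mm39). The 20 degron files were counted with a minimum mapping quality of 30 and the other 44 without one, so levels are not compared between these experiments. The authors' processing notes also list Bowtie2 and DESeq2. CPM is the count scaled to the library total, without TMM factors. Tests used edgeR 4.0.16 (quasi-likelihood F test, TMM, robust, R 4.3.3) on genes averaging 10 or more counts across the fitted libraries. P-values were Benjamini-Hochberg adjusted over all genes tested and called under 0.05, and SE is the log2 fold change divided by the root of F. Counts of members at an unadjusted p under 0.05 or called by DESeq2 are given without the share of all genes at the same limit. They cannot be read as more or fewer than among all genes. Scripts were tested on simulated counts. The lowest chi-square per gene between any 2 replicates was 17.3, so no library was counted as a repeat. Alternatives were DESeq2 1.42.0, RLE scaling, no count filter, only the compared libraries, a replicate block, the files as attached and leaving out libraries. Members and gene lists were chosen with earlier results of these data known. Hmgcs1, Sqle, Insig1, Srebf1, Srebf2, Fasn and Scd2 were to be named throughout, with up to 3 called members per direction of largest change and up to 4 called genes per companion list. Hsd17b7 in thymic TIR1, Acss2 in active TIR1, Dhcr7 in infant cells and other members named without a call were named after their values were seen.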

Additional observations from a re-analysis of the deposited data

Results flagged for a closer look

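In 4 members the difference between groups' effects passed its own interaction test. Sc5d responded differently to restored Foxp3 in active and in resting cells, with a log2 difference of fold changes of -0.69. Between GFP Treg and untreated minusFoxp3 cells, the difference of active over resting was lower for Mvd (-1.28), Sqle (-1.30) and Cyp51 (-1.17), in a contrast chosen after seeing the data.

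Scd1 had 1 infant library titled TIR1 at 0.475 CPM while the other 3 were at 0, in a gene under the count minimum there. With the others at 0 any read pair would meet this limit, so the value says nothing about the library. It was the 1 such case among 64 gene and group pairs examined, and chance alone puts about 1 group in 20 past this limit.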

How the results depend on the processing

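Of 64 called values of named genes 34 stayed past the threshold in the settings run for each, and 0 changed sign in those. The attached files were run for 12 of the 64, and exchange the genotypes in the adult TIR1 against WT contrasts, whose uncalled values are not among them. Total counts of called genes moved by more than 1.5 times in these cases. DESeq2 called 1 gene in infants, 2 in resting cells at day 3 and 3 at day 14, 1 in resting GFP Treg against untreated minusFoxp3 cells, 3 in active cells at day 14, 2 at day 28 and 4 over days 3 to 28, 2 in active GFP Treg against day 28 plusFoxp3 cells, 2 between GFP Treg states, and 5 and 6 in the state differences of plusFoxp3 and GFP Treg cells. Without the count filter there were 3 in resting cells at day 3, 2 in resting GFP Treg against untreated minusFoxp3 cells, 1 in active cells at day 0 and 2 at day 28, 2 in active GFP Treg against day 28 plusFoxp3 cells, 1 between GFP Treg states and 4 in the plusFoxp3 state difference. With only the compared libraries there were 2 in resting cells at day 3, 8 over days 3 to 28, 4 in active GFP Treg against untreated minusFoxp3 cells and 0 in the GFP Treg state difference. The totals of this paragraph are of members, without the share of all genes called in each setting. The cause was not tested.

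Same-numbered replicates had correlations of their deviations from -0.176 to 0.319 (median 0.069 over pairs of resting and 0.033 over pairs of active KIKO and GFP groups), not all above 0.1, so the numbers were not taken to pair the samples. In resting minusFoxp3 cells the summed mevalonate and sterol genes were nevertheless higher in replicate 1 on all 5 days. With the replicate number as a block, 1 gene was called in resting GFP Treg against untreated minusFoxp3 cells, 2 in active cells at day 14 and 3 in the plusFoxp3 state difference.

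Leaving out 1 library gave 0 to 3 calls in infants (3 without titled WT replicate 4), 8 to 17 for thymic against active cells, 0 to 5 in resting cells at day 0 (5 without plusFoxp3 replicate 2), 0 to 1 at day 14 (1 without plusFoxp3 replicate 2) and 2 to 7 over days 3 to 28. It gave 0 to 1 in resting GFP Treg against untreated minusFoxp3 cells (1 without minusFoxp3 replicate 2), 0 to 5 in active cells at day 7 (5 without minusFoxp3 replicate 2), 0 to 1 at day 28 (1 without plusFoxp3 replicate 1) and 2 to 4 over days 3 to 28 (4 without day 7 minusFoxp3 replicate 1). Active GFP Treg cells gave 1 to 4 against untreated minusFoxp3 and 0 to 1 against day 28 plusFoxp3 cells (1 without plusFoxp3 replicate 2), and the state differences gave 1 to 4 for plusFoxp3, raised by 10 of 32 left-out libraries, and 0 to 2 for GFP Treg cells. Groups of 2 libraries leave an arm of 1, assumed to vary like the others. Calls over all genes also rose among these fits at resting day 0, at active day 7 and in infants, where they ran from 1 to 1774. The member counts there were not set against the share of all genes. RLE scaling and the attached files moved no such total by more than 1.5 times. Without day 0, an alternative chosen after seeing the data, the totals stayed within 1.5 times, but genes higher in active plusFoxp3 cells went from 9 to 4 and genes lower in active minusFoxp3 cells from 3 to 1.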
